A study of Mus musculus with 76 samples.

Results

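Broad H3K4me3 domains are stretches of chromatin over which trimethylation of lysine 4 on histone H3, a mark of active and poised gene starts, extends for several kilobases instead of forming a narrow peak at a promoter. In the developing mouse diencephalon, 1565 such domains were found, beside 10449 other protein-coding gene starts with H3K4me3 (12014 marked starts and domains in all). A domain was a wild type H3K4me3 peak of 4 kb or more, from its first to its last base, in both E11.5 replicates or in all 3 E17.5 replicates, matched by overlap and lying within 5 kb of a protein-coding gene start. The wild type widths therefore chose the domains and are given below as a description, without a test. Each domain was assigned to the protein-coding gene whose start lay nearest to its centre, which gave 1563 genes, since Sox1 and Cdkn1b each had a pair of domains. A further 262 regions were as wide but had no protein-coding gene start within 5 kb and were not described.

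The embryos were homozygous wild type or homozygous for hs754-humanized, an allele in which a human sequence replaces its mouse counterpart on chromosome 13. The line was made by CRISPR editing of C57BL/6J embryos and backcrossed to that strain. Diencephalon, the part of the forebrain that forms the thalamus, prethalamus, habenula and hypothalamus, was taken at E11.5 and E17.5, and a replicate is a pool from a single litter, of 6 embryos at the early and 3 at the late stage. H3K4me3, H3K27me3 and H3K27ac were each mapped in 2 E11.5 and 3 E17.5 pools of either genotype, CTCF in 3 E17.5 pools of either genotype, and RNA was sequenced from 4 pools in each of the 4 groups. Whole tissue was measured, so fewer cells of a type and less RNA or histone mark per cell cannot be told apart in any value below.

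The wild type H3K4me3 lists held 23471 to 25080 peaks, of which 5.85% to 7.13% were 4 kb or wider, and their read depth is unknown. The RNA samples had 16414369 to 24272569 reads counted on genes. Replicate 1 of the E17.5 wild type RNA samples stood apart from its group. Leaving it out raised the number of domain genes called between stages from 1034 to 1260. It was kept in each comparison unless its omission is stated, and it is named below at some of the genes where it stood apart. The RNA held the factors of the labelled tissue. Over their tested members, thalamic transcription factors summed to 1892 to 2604 CPM (counts scaled to library size) in the wild type E11.5 samples and 2898 to 3403 at E17.5, while hindbrain and midbrain markers summed to 7.91 to 19.3 and 8.16 to 18.7. Of 39 Hox cluster genes, which mark the hindbrain and spinal cord, 1 passed the filter on low counts, and none had a domain. Markers of other cell types also differed between the stages. Of 10 erythroid markers 7 fell and 1 rose, with sums of 1420 to 2940 CPM at E11.5 and 213 to 893 at E17.5. Of 10 meningeal and mesenchymal markers 8 fell and 1 rose (1552 to 2027 and 468 to 803 CPM), and no tested marker of either list was at 0 in every sample of a stage. Of 8 telencephalic markers 5 rose and 1 fell, with sums of 45 to 52.7 CPM at E11.5 against 119.9 to 167.7 at E17.5, and of 8 choroid plexus markers 4 rose and 1 fell (291 to 356.7 and 188.2 to 358.5 CPM). Of 10 microglia markers 1 rose and 0 fell, and of 10 endothelial markers 2 rose and 1 fell. Their part in the stage differences below was not tested.

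H3K4me3 is laid down by the SET1 and MLL (KMT2) methyltransferases, which are drawn to unmethylated CpG-rich DNA. Most active promoters carry a short peak, and broad domains are known from many tissues as a feature of genes that set cell identity. H3K27me3, laid down by Polycomb repressive complex 2 through its subunit EZH2, marks silenced developmental genes. The presence of both marks over a gene start is called bivalent and can come from the same chromosome copies or from different cells of a mixed tissue. H3K27ac marks active promoters and enhancers. The authors report that their H3K27ac antibody lot also bound an acetylated form of histone H2B, so the H3K27ac peaks may hold either mark.

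The 300 bases before the annotated start of 4 genes are shown because their domains were the widest of the domains wide at both stages (Nr2f1), at E11.5 only (Olig3) and at E17.5 only (Dlx6), and the widest with H3K27me3 over its gene start at both stages (Nr2f2). They were read from mm39 on the gene's strand, 5′ to 3′, and capitals mark CpG dinucleotides.
Nr2f1, chr13:78348579-78348878, strand minus: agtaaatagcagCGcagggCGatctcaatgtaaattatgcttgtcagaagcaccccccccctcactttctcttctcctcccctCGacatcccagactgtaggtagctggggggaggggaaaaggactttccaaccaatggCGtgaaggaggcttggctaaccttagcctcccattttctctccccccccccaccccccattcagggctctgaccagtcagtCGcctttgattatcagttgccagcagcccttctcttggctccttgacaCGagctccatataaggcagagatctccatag
Olig3, chr10:19231981-19232280, strand plus: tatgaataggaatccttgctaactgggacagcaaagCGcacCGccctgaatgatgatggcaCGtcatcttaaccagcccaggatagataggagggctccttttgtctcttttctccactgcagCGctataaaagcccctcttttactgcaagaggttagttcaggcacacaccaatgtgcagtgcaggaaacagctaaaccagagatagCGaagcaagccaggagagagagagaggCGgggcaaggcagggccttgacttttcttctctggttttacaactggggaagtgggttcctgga
Dlx6, chr6:6862689-6862988, strand plus: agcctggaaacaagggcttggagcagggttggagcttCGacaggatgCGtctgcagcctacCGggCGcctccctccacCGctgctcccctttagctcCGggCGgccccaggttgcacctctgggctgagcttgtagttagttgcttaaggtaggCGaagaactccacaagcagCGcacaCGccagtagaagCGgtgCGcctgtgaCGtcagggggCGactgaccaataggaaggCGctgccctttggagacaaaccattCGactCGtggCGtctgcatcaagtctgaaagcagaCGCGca
Nr2f2, chr7:70016520-70016819, strand minus: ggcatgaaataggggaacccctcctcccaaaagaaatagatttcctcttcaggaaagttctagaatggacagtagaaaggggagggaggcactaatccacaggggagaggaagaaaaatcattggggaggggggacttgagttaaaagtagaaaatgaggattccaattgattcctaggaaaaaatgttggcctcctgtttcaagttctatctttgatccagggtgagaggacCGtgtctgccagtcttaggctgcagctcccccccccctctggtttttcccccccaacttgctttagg

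All 4 windows lay inside their domains, yet they differed widely in CpG content. Each precedes the outermost annotated start of its gene, and whether that start was in use was not tested. At Nr2f2, the 1 kb centred on this start had 11 CpGs per kb and the whole domain 27.13. The Nr2f1 and Olig3 windows each held 6 CpGs, Dlx6 held 20 and Nr2f2 held 1. Over all domain gene starts the median was 15 CpGs in 300 bases (quartiles 8 and 25), against 13 (8 and 20) over all 12229 H3K4me3-marked protein-coding starts. Fewer CpGs than in the Nr2f2 window were found at 0.393% of marked starts, and fewer than in the Dlx6 window at 73.6%. The median was 17 for domains wide at both stages, 16 for those wide at E11.5 only and 11 for those wide at E17.5 only. The letters TATAAA, searched on both strands, were present in the Olig3 window and in 9.14% of domain windows, against 9.28% of all marked starts. The letters GGGCGG, also on both strands, were present in the Olig3 and Dlx6 windows, in 53.5% of domain windows and in 47.8% of all marked starts. In the 1 kb centred on the gene start, domains had a median of 65 CpGs per kb and other marked starts 59.

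The widest domains covered genes for transcription factors of the early forebrain. Nr2f1, an orphan nuclear receptor that patterns forebrain areas, had the widest domain, spanning chr13:78310581-78359407, with a width of 37845 and 37067 bp in the E11.5 lists and 24348, 19416 and 18362 bp in the E17.5 lists. Its E11.5 widths were all above its E17.5 widths. Its paralogue Nr2f2 (chr7:69991146-70022991) kept nearly the same width, 31634 and 31313 bp at E11.5 and 30102, 30185 and 28925 bp at E17.5. The domain of Zic1, a zinc finger factor of the dorsal neural tube and thalamus that shares its domain with Zic4, measured 24740 and 24747 bp at E11.5 and 27436, 36131 and 27543 bp at E17.5. Pou3f3, a POU homeodomain factor, measured 30694 and 31041 bp against 14039, 21654 and 15746 bp. Sox2, the factor of neural stem cells, measured 20726 and 19533 bp against 22091, 21904 and 11537 bp, so its stages overlapped.

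Other domains in the top 8 of E11.5 belonged to genes of early patterning. Pax6 measured 22432 and 22851 bp at E11.5 and 10201, 15216 and 9485 bp at E17.5. Otx2, which forebrain and midbrain need to form, measured 21482 and 21086 bp against 13834, 7431 and 7304 bp. Skida1, whose domain also held the start of Mllt10, measured 24560 and 30151 bp against 6970, 6618 and 6847 bp, and Ptch1, the receptor of Sonic hedgehog, 21436 and 19544 bp against 7630, 9303 and 9253 bp. In all 4 the E11.5 widths lay above every E17.5 width. The top 8 of E17.5 added Lhx9, a LIM homeodomain factor of the thalamus, with 10397 and 9919 bp at E11.5 and 18896, 19511 and 21079 bp at E17.5. It also added Six3, a homeodomain factor of the rostral forebrain, with 5425 and 5734 bp against 20511, 11677 and 20096 bp. Pou3f2 was there too, with 23620 and 12223 bp against 15446, 15597 and 15298 bp, and its E11.5 lists differed from each other by more than its stage means did.

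**Figure D1:**
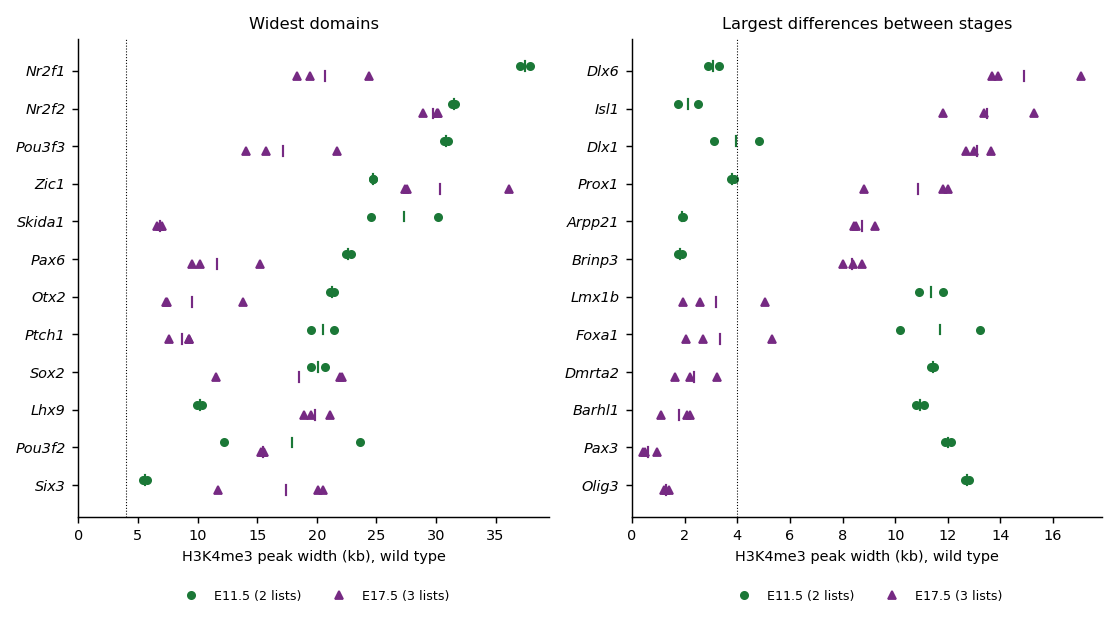
Width of the wild type H3K4me3 peak (kb) in each list, for the domains with the largest mean width at either stage (left) and for the domains wide at 1 stage only with the largest difference between stages (right). Circles are the 2 E11.5 lists, triangles the 3 E17.5 lists, short bars the means and the dotted line the 4 kb limit. Nr2f1 reaches 37845 bp at E11.5, and Olig3 and Pax3 at E17.5 and Isl1 at E11.5 lie below the limit in every list.

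Most domains were far narrower. By the larger of the stage means, 698 measured 4 to 5 kb, 653 measured 5 to 7.5 kb, 130 measured 7.5 to 10 kb, 66 measured 10 to 15 kb and 18 measured 15 kb or more. Just inside the limit were Ache with 4000 bp and Map3k1 and Serinc1 with 4001 bp each in their narrowest required list, and just outside were Insig1 with 3999 bp and Slc5a3 and Mrps6 with 3998 bp each. The assigned gene start lay inside 1477 domains (94.4%), and 283 domains held or neighboured the starts of several protein-coding genes. In 1333 of the 1477 (90.3%), more of the domain lay downstream of the start, in the gene body, than upstream. The gene start was the outermost annotated start, so a domain over a start further inside the gene counts as downstream. The median reach was 4238 bp downstream and 1219 bp upstream. Among the 18 widest the median upstream reach was 6608 bp.

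At both stages 687 domains were wide, 393 were wide at E11.5 only and 485 at E17.5 only. This split depends on the limit, since 143 of the E11.5-only domains reached 4 kb in some E17.5 list and 102 of the E17.5-only domains in some E11.5 list. The median E11.5-only domain had a mean width of 4630.5 bp at E11.5 and 3527.3 bp at E17.5, and the median E17.5-only domain 3174.5 and 4822.7 bp. A mean width under 2 kb at the other stage was found for 27 E11.5-only domains (6.87%) and 67 E17.5-only domains (13.8%). Of all 1565 domains, Dmbx1 and Pax7 alone had no peak in any list of the other stage.

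The largest losses of width lay at Olig3, Pax3, Barhl1, Dmrta2, Foxa1 and Lmx1b, all genes for transcription factors. Olig3, a bHLH factor of thalamic progenitors (chr10:19226488-19239436), measured 12791 and 12649 bp at E11.5 and 1209, 1391 and 1310 bp at E17.5. Pax3, a paired homeodomain factor of the dorsal neural tube, measured 12135 and 11899 bp against 943, 498 and 417 bp. Foxa1, a forkhead factor of the ventral midline, measured 13212 and 10176 bp against 5336, 2700 and 2046 bp. Barhl1, Dmrta2 and Lmx1b, which complete the 6, had mean widths of 10954, 11424 and 11374 bp at E11.5 against 1792.7, 2346.7 and 3187.7 bp at E17.5.

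The largest gains lay at Dlx6, Isl1, Dlx1, Prox1, Arpp21 and Brinp3. Dlx6, a homeodomain factor of GABAergic neurons (chr6:6854552-6871699), measured 2878 and 3287 bp at E11.5 and 17041, 13681 and 13905 bp at E17.5. Dlx1, a factor of the same family, measured 4816 and 3099 bp against 12696, 13646 and 13009 bp. Isl1, a LIM homeodomain factor of differentiating neurons, measured 2523 and 1763 bp against 13358, 15287 and 11828 bp. Prox1 measured 3881 and 3754 bp against 8826, 11833 and 11994 bp. Arpp21, an RNA-binding phosphoprotein of neurons, and Brinp3 had mean widths of 1908.5 and 1811.5 bp at E11.5 and of 8727.3 and 8375 bp at E17.5.

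**Figure D2:**
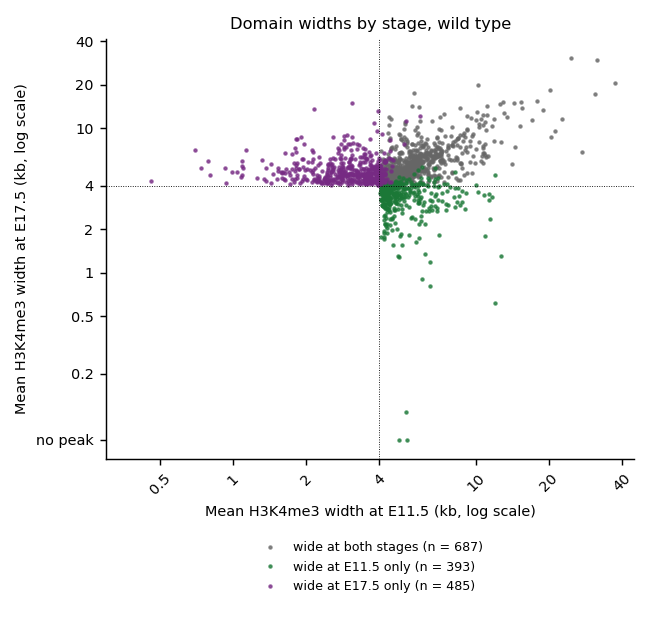
Mean H3K4me3 width at E11.5 against that at E17.5 (kb, log scales) for the 1565 domains in wild type, colored by the stages at which the rule found them wide. Dotted lines mark 4 kb. Most domains of 1 stage lie close to the limit at the other stage, and the 2 points at the bottom are Dmbx1 and Pax7, with no peak at E17.5.

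The humanized lists did not enter the rule and gave a check of the widths in other litters. Domains on chromosome 13 past the replaced sequence (25 of 1565) were left out, because coordinates there are shifted in the humanized genome. Of the E11.5-only domains, 315 of 389 (81%) were 4 kb or wider in both humanized E11.5 lists and 10 (2.57%) in all 3 humanized E17.5 lists. Of the E17.5-only domains, 50 of 477 (10.5%) were so at E11.5 and 366 (76.7%) at E17.5. Of the domains wide at both stages, 635 of 674 (94.2%) were so at E11.5 and 599 (88.9%) at E17.5.

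The width of the peak over the gene start was then compared between stages in the 5 humanized lists with limma, over all 11285 starts with a peak in every list. At an adjusted p under 0.05, 375 of 1363 tested domains (27.5%) were wider at E17.5 and 360 (26.4%) narrower, against 15.7% wider and 22.3% narrower (38% together) among all starts tested. Among E17.5-only domains 286 of 406 were wider and 3 narrower, with a median log2 ratio of 0.548, and among E11.5-only domains 0 of 333 were wider and 228 narrower (-0.481). Among domains wide at both stages 89 of 625 were wider and 129 narrower (-0.046), beside a median of -0.070 over all starts tested. Starts without a peak in some list were not tested, among them those of Olig3, Pax3 and Dlx1, and Isl1 and Nr2f1 lie in the part of chromosome 13 that was left out. Tal2, a bHLH factor of midbrain and pretectal GABAergic neurons, measured 4791 and 4767 bp over its domain at E11.5 and 966, 889 and 1097 bp at E17.5 in the humanized lists (log2 ratio -2.29 ± 0.10 SE, adjusted p = 9.04e-05). Grm5, a metabotropic glutamate receptor, measured 730 and 793 bp against 5223, 4795 and 5193 bp (log2 ratio 2.74 ± 0.08 SE, adjusted p = 2.59e-05). Ptch1 measured 21900 and 21831 bp against 8801, 8804 and 7269 bp over its domain.

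Transcription factors were common among domain genes. By gene symbol, 156 of 1563 domain genes (9.98%) belonged to homeobox, Sox, forkhead, bHLH, T-box or other developmental factor families, against 159 of 10449 other marked genes (1.52%). The symbol patterns do not hold every such gene, and Dmbx1 and Dmrta2 are not counted among them. Homeobox genes made up 56 of the 156, bHLH genes 23, forkhead genes 15, Sox genes 9, T-box genes 1 and zinc finger and related factors 52. Their share was larger in wider domains, from 3.3% of the domains of 4 to 5 kb to 9.36% at 5 to 7.5 kb, 24% at 7.5 to 10 kb, 39.4% at 10 to 15 kb and 83.3% of the 18 domains of 15 kb or more. It was 13.7% for domains wide at both stages, 11% at E11.5 only and 4.12% at E17.5 only.

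Across the gene lists, domains lay over more than 50% of the members in each list of diencephalic region factors and of neural progenitor genes. Of all genes with an H3K4me3-marked start, 13% had a domain. A domain was found for 12 of 15 thalamic transcription factors, among them Tcf7l2, Gbx2, Lhx2 and Lhx9, and for 16 of 19 prethalamic and GABAergic factors, among them Dlx1, Dlx2, Dlx5, Dlx6 and Lhx5. It was found for 12 of 16 habenular, pretectal and eminence factors, among them Irx1, Irx2, Irx3, Irx5 and Barhl2, for 11 of 20 hypothalamic factors, among them Nkx2-1, Sim1 and Foxb1, and for 23 of 26 neural progenitor genes, among them Sox1, Sox2, Sox9, Hes1, Hes5, Nes and Vim. Of 26 neuronal genes 14 had a domain, of which 8 were wide at E17.5 only and 0 at E11.5 only. A domain was found for 2 of 12 proneural bHLH factors, 2 of 19 glial genes (Slc1a2 and Ptprz1) and 4 of 15 housekeeping genes (Gapdh, Pgk1, Ppia and Ywhaz). Genes of the histone methylation machinery were among the members. Of 15 H3K4 methylation genes, Kmt2a, Kmt2c, Kmt2d and Setd1b had a domain, all wide at both stages, and of 17 Polycomb genes 8 did, including Ezh2 and Cbx2 at E11.5 only and Jarid2 and the H3K27 demethylase Kdm6b at both stages. Of the markers of other cell types, domains covered 0 of 10 microglia, 0 of 10 erythroid, 0 of 10 hindbrain and midbrain, 2 of 10 endothelial, 3 of 10 meningeal and mesenchymal, 1 of 8 choroid plexus and 2 of 8 telencephalic genes.

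H3K27me3 was called over the gene start in every wild type list for 372 domains (23.8%) at E11.5 and 306 (19.6%) at E17.5. Of all 12229 marked starts, 17.6% at E11.5 and 17% at E17.5 had it. The call was made at both stages for 233 domains, at E11.5 only for 139, at E17.5 only for 73 and at neither for 1120. The wild type H3K27me3 lists differed in size, from 13850 and 19166 peaks at E11.5 to between 27452 and 43700 at E17.5. Single lists had a peak over 388 and 449 of the domain starts at E11.5 and over 344, 345 and 390 of them at E17.5. The E11.5 share was larger in wider domains, from 17.2% of domains of 4 to 5 kb to 45.5% at 10 to 15 kb and 13 of the 18 widest. When H3K27me3 anywhere in the domain counted, 688 domains had it at E11.5 and 589 at E17.5.

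H3K27me3 over the start also differed with the stage at which a domain was wide. In the E17.5-only domains, H3K27me3 lay over 44.7% and 40.2% of the gene starts in the wild type E11.5 lists, and over 30.1%, 24.3% and 24.1% in the E17.5 lists. In the E11.5-only domains it lay over 20.6% and 17% at E11.5 and over 26.7%, 25.4% and 25.2% at E17.5. The stages did not overlap in either class. The E17.5 lists held more peaks, and the part of list size in the shares of both classes was not tested. In the domains wide at both stages it lay over 22% and 18.3% at E11.5 and over 20.2%, 18.5% and 18.6% at E17.5, and the stages overlapped. The humanized lists gave 48.8% and 47.4% of the E17.5-only starts at E11.5 against 24.5%, 23.5% and 19.7% at E17.5, and 20.1% and 19% of the E11.5-only starts against 23.9%, 24.9% and 23.1%.

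**Figure D3:**
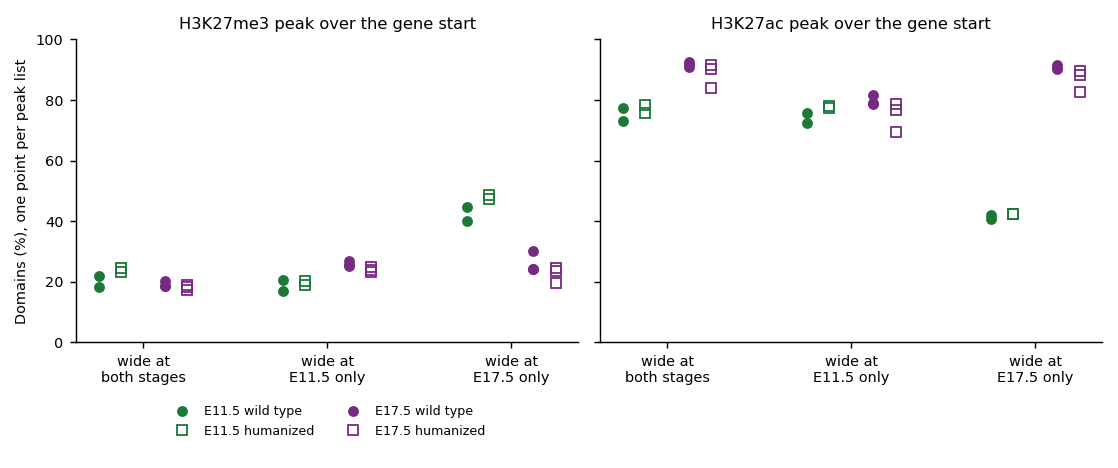
Share of domains (%) with an H3K27me3 peak (left) or an H3K27ac peak (right) over the gene start, in each peak list, by the stages at which the domain was wide. Green is E11.5 and purple E17.5, filled circles are wild type and open squares humanized lists. The E17.5-only domains have H3K27me3 at 40.2% to 48.8% of starts in the E11.5 lists and 19.7% to 30.1% in the E17.5 lists, and H3K27ac at 40.8% to 42.3% and 82.6% to 91.5%.

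Among the domains with H3K27me3 over the start at both stages, 91 of 232 genes (39.2%) were listed transcription factors, and the widest 5 were Nr2f2, Zic1, Pax6, Otx2 and Sox2. At Otx2 the fold enrichment of the H3K27me3 peak was 2.99 and 3.56 in the E11.5 lists and 14.5, 11.6 and 11.9 in the E17.5 lists. At Pax6 it was 15.1 and 10.9 against 17.03, 13.7 and 14.9. At Nr2f2 it was 5.91 and 4.20 against 7.72, 5.87 and 6.56. Fold enrichment depends on depth as well as on the mark, so these values are not compared between stages. The 139 domains with the mark at E11.5 only had 2 transcription factor genes, and the widest 5 were Ptch1, Myt1l, Msi1, Pcdh7 and Fam120b, whose domain also held the start of Dll1. At Ptch1 the peak over the start had a fold enrichment of 4.76 and 4.18 at E11.5. No wild type E17.5 list had a peak over that start, although peaks still covered 8.83% to 19.2% of the domain and humanized E17.5 replicate 1 had one over the start (2.94). At Pcdh7, a protocadherin, it was 9.02 and 9.16, with none over the start at E17.5 and 12.8% to 25.8% of the domain covered. At Myt1l, a zinc finger factor of neurons, it was 4.24 and 3.86 at E11.5, and 1 of 3 E17.5 lists had a peak over the start (2.54). Pou3f3, Pou3f2, Tcf7l2 and Rnf220 were among the widest of the 73 domains with the mark at E17.5 only. At Pou3f3 no peak lay over the start position in either wild type E11.5 list, but H3K27me3 peaks covered 93.4% and 91.5% of the domain there, and both humanized E11.5 lists had a peak over the start (4.79 and 5.03). In the E17.5 lists Pou3f3 had 8.08, 6.42 and 6.77 over the start. At Tcf7l2 the peaks covered 6.89% and 0% of the domain in the E11.5 lists and none lay over the start, against 7.37, 5.94 and 5.70 at E17.5. At Pou3f2 and Rnf220, replicate 1 of E11.5 also had a peak over the start, with 3.40 and 7.24, and peaks covered 63.6% to 79.1% and 87.6% to 100% of the domain in the E11.5 lists.

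H3K27ac lay over the gene start in every wild type list for 922 domains (58.9%) at E11.5 and 1340 (85.6%) at E17.5, against 42.3% and 74.5% of the other marked starts. The E17.5-only domains had it over 42.1% and 40.8% of starts in the E11.5 lists and over 90.1%, 90.5% and 91.5% in the E17.5 lists. The E11.5-only domains had 75.8% and 72.3% against 79.1%, 78.6% and 81.7%. The H3K27ac lists were also longer at E17.5 (62720 to 77419 peaks against 32418 and 36150), and the part of list size in these shares was not tested. At E17.5, 1177 domains (75.2%) overlapped some CTCF peak in each wild type list, not always the same one. The share went from 71.5% of the domains of 4 to 5 kb to 88.9% of the 18 widest, and wider regions hold more peaks of any kind. These lists held 61582 to 78661 peaks. No share for other marked starts is given beside the count, so it is not read as a trait of the domains.

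RNA was counted for 1551 of the 1563 domain genes, and 1531 passed the filter on low counts in the wild type comparison of stages. Median RNA levels in RPKM (CPM per kilobase of exon) were 8.71 at E11.5 and 9.19 at E17.5, against 3.99 and 4.30 for the other marked genes. Genes of E17.5-only domains had a median of 2.86 RPKM at E11.5 and 10 at the later stage, and genes of E11.5-only domains 13.7 and 6.41. Across domain genes, the mean wild type width and the mean RPKM of the same stage had a Spearman's rho of 0.431 at E11.5 and 0.196 at E17.5 (n = 1531 genes, which share libraries and are not independent replicates).

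Between E11.5 and E17.5 in wild type, RNA of 559 of the 1531 domain genes (36.5%) rose and that of 475 (31%) fell, at an adjusted p under 0.05 in edgeR's quasi-likelihood test over 18583 genes with 4 samples per stage. Of all genes tested, 29% were called higher and 26.7% lower. Without the filter, 547 of 1544 domain genes rose and 470 fell. The median log2 fold change was 0.11 for the domain genes and -0.02 for all genes tested. The classes went opposite ways. Of 476 tested genes of E17.5-only domains, 366 (76.9%) rose and 10 fell, with a median log2 fold change of 1.84. Of 382 genes of E11.5-only domains, 18 rose and 244 (63.9%) fell, with a median of -1.08. Of 674 genes of domains wide at both stages, 175 rose and 222 fell (-0.08). Without replicate 1 of E17.5, 379 genes of E17.5-only domains rose and 27 fell, and 34 genes of E11.5-only domains rose and 294 fell. In the humanized samples 384 of 475 genes of E17.5-only domains rose and 34 fell, and 46 of 382 genes of E11.5-only domains rose and 293 fell, where 38.2% of all genes were called higher and 39.5% lower (77.7% together). Of 1033 domain genes called in wild type and tested in humanized samples, 1031 had the same direction there and 1004 were called.

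The log2 ratio of the wild type widths and the RNA log2 fold change had a Spearman's rho of 0.808 across 1529 domain genes. With widths from the humanized lists, which the rule did not use, rho was 0.783 over 1332 genes. The genes share libraries, and the choice of domains by width at a stage widens the range of the ratio, so both are descriptions. Within each class, RNA also differed with H3K27me3 over the start. Of E17.5-only domain genes with H3K27me3 at E11.5 only, 89 of 101 rose and 0 fell, with a median log2 fold change of 2.69, of those with it at both stages 71 of 82 rose and 4 fell (2.53), and of those with it at neither stage 202 of 284 rose and 6 fell (1.43). The 9 with it at E17.5 only had 4 that rose and 0 that fell (0.10). Of E11.5-only domain genes with H3K27me3 at E17.5 only, 34 of 36 fell and 0 rose (-2.24), of those with it at both stages 50 of 59 fell and 0 rose (-2.51), and of those with it at neither stage 156 of 281 fell and 18 rose (-0.76). Of the 6 E11.5-only domain genes with it at E11.5 only, 4 fell and 0 rose (-1.19). Among domains wide at both stages, 19 of 31 genes with H3K27me3 at E11.5 only rose and 4 fell, 5 of 27 with it at E17.5 only rose and 19 fell, 22 of 88 with it at both stages rose and 41 fell, and 129 of 528 with it at neither rose and 158 fell.

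**Figure D4:**
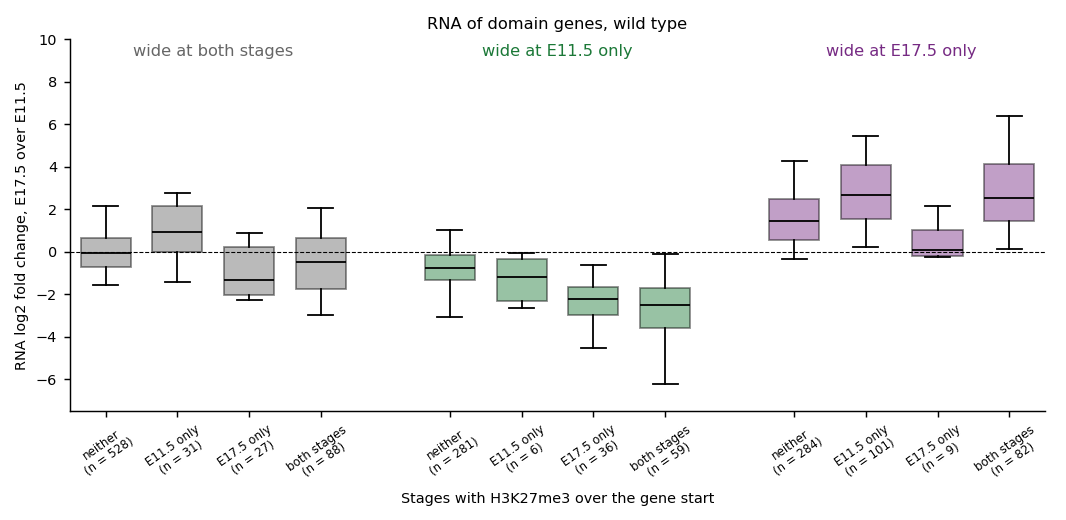
RNA log2 fold change, E17.5 over E11.5 in wild type (edgeR), of tested domain genes, grouped by the stages at which the domain was wide and, within each, by the stages with H3K27me3 over the gene start. Boxes show the median and quartiles, whiskers the 5th and 95th percentiles, and the dashed line the median of all genes tested (-0.02). Medians are above 0 in each E17.5-only group and below 0 in each E11.5-only group.

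The largest falls were at genes of undifferentiated cells and of early patterning. Hmga2, a chromatin protein of early progenitors, had 23.6, 26.9, 25.7 and 26.9 RPKM at E11.5 against 0.315, 0.423, 0.358 and 0.276 at E17.5, and its log2 fold change was -6.23 ± 0.22 (SE, adjusted p = 2.26e-07). Lin28a, an RNA-binding protein that blocks let-7 maturation, had 6.62, 11.98, 12.6 and 14.97 RPKM against 0.325, 0.190, 0.147 and 0.360 (-5.48 ± 0.37, adjusted p = 1.31e-06). Trim71, a let-7 target and ubiquitin ligase of early embryos, had 2.06, 2.98, 3.21 and 3.97 against 0.0280, 0.0466, 0.0578 and 0.0593. Sall4, a zinc finger factor of pluripotent cells, had 3.49, 6.80, 5.13 and 7.20 RPKM at E11.5 and at most 0.0907 at E17.5, where 1 sample had 0. These 4 genes of developmental timing and early cell states were all assigned to E11.5-only domains, though the annotated Sall4 start lay just outside its domain. None of their stages overlapped, a condition of the rule that chose them.

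Olig3 RNA had 43.8, 41.4, 29.2 and 26.6 RPKM at E11.5 against 0.453, 0.341, 0.450 and 0.514 at E17.5 (log2 fold change -6.31 ± 0.28, adjusted p = 2.87e-07). Tal2 had 44.1, 28.8, 52.7 and 36.6 against 0.191, 0.458, 0.275 and 0.263 (-7.09 ± 0.34, adjusted p = 3.12e-07). Igdcc3, an immunoglobulin superfamily receptor, had 46.3, 83.9, 68.5 and 94.2 against 2.03, 1.53, 1.48 and 1.29. Dmbx1, a paired-like homeodomain factor of the midbrain and caudal diencephalon, had 3.91, 7.78, 8.03 and 7.45 against 0.205, 0.139, 0.184 and 0.0727. Every E11.5 sample lay above every E17.5 sample for each of them, as the same rule required.

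The largest rises were at genes of neuronal signaling. Grm5 had 0.0524, 0.0049, 0.0679 and 0.0076 RPKM at E11.5 against 10.2, 30.9, 19.7 and 27.3 at E17.5 (log2 fold change 9.39 ± 0.68, adjusted p = 1.94e-06). Glra2, a glycine receptor subunit, had 0.319, 0.121, 0.349 and 0.265 against 10.8, 31.2, 37.1 and 39.2. In both receptor genes the lowest E17.5 value came from replicate 1. It still lay above every E11.5 value, as the rule that chose these genes required. Gabrg1, a GABA-A receptor subunit, had 0.0102 to 0.0452 RPKM at E11.5 against 1.65, 5.58, 4.94 and 6.95 at E17.5. Cbln4, a secreted organizer of synapses, had 0.0704 to 0.348 against 22.3, 23.1, 21.0 and 26.4, and Shisa9, an auxiliary AMPA receptor subunit, 0.0888 to 0.402 against 19.1, 21.0, 19.1 and 23.6. AI593442 had 0.146 to 0.283 against 12.5, 26.4, 23.0 and 29.3, and replicate 1 was the lowest E17.5 sample here and for Gabrg1. Vax1, a homeodomain factor of the ventral forebrain, was at 0 in 3 of 4 E11.5 samples and 0.0470 in the fourth. It had 8.78, 4.97, 4.08 and 3.20 RPKM at E17.5, with replicate 1 the highest. These genes all lay in E17.5-only domains. H3K27me3 was called over the start in every wild type list at E11.5 only for Grm5 and Shisa9 and at both stages for Cbln4 and Vax1. It was called at neither for Gabrg1, Glra2 and AI593442. E17.5 replicates 1 and 3 also had a peak over the Shisa9 start (fold enrichment 4.35 and 3.29). At Glra2, E11.5 replicate 1 and E17.5 replicate 3 did (2.78 and 3.00). At AI593442, peaks covered 72.0% to 76.2% of the domain at E11.5, and both humanized E11.5 lists had a peak over the start (8.745 and 10.83).

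**Figure D5:**
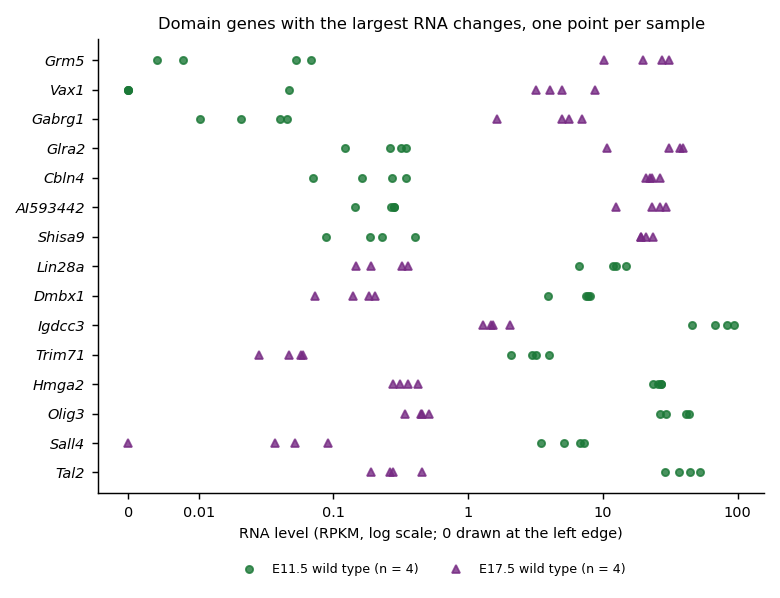
RNA level (RPKM, log scale) in each wild type sample for the domain genes described here with the largest rise (7 genes) and the largest fall (8 genes). Circles are the 4 E11.5 and triangles the 4 E17.5 samples, and values of 0 are drawn at the left edge. The stages do not overlap for any gene drawn, a condition of the rule that chose them.

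At the 18 domains of 15 kb or more, RNA of 13 genes fell and that of 4 rose, with a median log2 fold change of -1.41, against medians of -0.12 to 0.18 in the narrower width classes. Among the widest, Skida1 (-2.44), Pou3f2 (-2.24), Pax6 (-2.08), Pou3f3 (-1.46) and Ptch1 (-1.40) fell, and every E11.5 sample of each lay above every E17.5 sample. Nr2f1 RNA had 72.0, 62.4, 75.6 and 67.0 RPKM at E11.5 against 56.9, 40.4, 33.6 and 36.2 at E17.5 (log2 fold change -0.73 ± 0.20, adjusted p = 0.00908), with replicate 1 the highest E17.5 sample. Nr2f2 had 43.5, 37.4, 47.8 and 46.3 against 36.4, 34.0, 32.2 and 33.6 and was not called (-0.36 ± 0.15, adjusted p = 0.0657). Without replicate 1 of E17.5 it was called (-0.41, adjusted p = 0.00594). Zic1 rose, from 73.5, 60.9, 77.2 and 65.8 to 119.9, 123.3, 102.8 and 100.3 RPKM (0.69 ± 0.16, adjusted p = 0.00429). Sox2 had 115.2, 121.6, 115.8 and 115.5 against 96.5, 66.2, 65.3 and 70.6 (-0.65 ± 0.17, adjusted p = 0.00885), and Otx2 50.5, 52.2, 63.3 and 57.4 against 7.56, 6.39, 6.27 and 6.08 (-3.09 ± 0.17, adjusted p = 4.89e-07). Six3 had 5.66, 5.39, 6.20 and 5.74 RPKM against 24.04, 11.2, 11.51 and 10.4 (1.31 ± 0.27, adjusted p = 0.00212), with replicate 1 the highest E17.5 sample. Lhx9 had 15.1, 6.82, 15.4 and 9.23 RPKM against 12.1, 28.3, 25.8 and 28.4, so its stages overlapped through replicate 1. Its log2 fold change was 1.02 ± 0.33 (adjusted p = 0.0225), and in 5 of the 8 fits that each left out 1 sample the adjusted p was above the threshold, at 0.0508 to 0.0718. These were the fits without E11.5 replicates 2 and 4 and without E17.5 replicates 2, 3 and 4. Tcf7l2, a thalamic factor of the Wnt pathway, had among the highest levels, with 147.7, 100.3, 121.2 and 98.7 against 151.4, 140.4, 130.1 and 114.8 RPKM, and was not called (0.20 ± 0.19, adjusted p = 0.386).

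The gene lists showed the same split. Of the 23 neural progenitor genes with a domain, 19 fell and 3 rose (Fabp7, Id4 and Zic2), and the median log2 fold change of all 26 listed genes was -1.98. All 12 habenular, pretectal and eminence factors with a domain fell, among them Irx3 with -3.21, Pax3 with -4.23 and Barhl2 with -2.96. Of 14 neuronal genes with a domain, 12 rose and 0 fell, among them Syt1 with 3.42 and Gad1 with 3.39, and Tubb3 (0.71) and Nefm (0.06) were not called. Region factors went both ways, beside 36.5% higher and 31% lower among all domain genes and 29% and 26.7% among all genes tested. Of 12 thalamic factors with a domain 6 rose and 4 fell, of 16 prethalamic and GABAergic factors 8 rose and 6 fell, and of 11 hypothalamic factors 3 rose and 4 fell. Whole lists, with or without a domain, were also counted over tested members. Of 15 thalamic factors 8 rose and 4 fell, of 19 prethalamic and GABAergic factors 8 and 8, and of 19 hypothalamic factors 10 and 4. Of 16 habenular, pretectal and eminence factors 2 rose and 13 fell, of 26 progenitor genes 3 and 20, and of 26 neuronal genes 24 and 0. The split of progenitor and neuronal genes was thus also that of their whole lists. Of the 8 Polycomb genes with a domain, Ezh2 (-2.33), Cbx2 (-3.21), Jarid2 (-0.79) and Kdm6b (-0.94) fell, and of the 4 H3K4 methylation genes Kmt2d (-0.85) fell. Of the 4 housekeeping genes with a domain 3 fell, Gapdh by 1.08, Pgk1 by 1.16 and Ppia by 0.50 on the log2 scale. Over all tested members, 2 of 17 Polycomb genes rose and 7 fell. Of 15 H3K4 methylation genes 0 rose and 11 fell, and of 14 housekeeping genes 0 rose and 6 fell.

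Humanized and wild type embryos were compared at each stage to ask whether the replaced sequence changed RNA of the domain genes. With 4 samples per genotype, edgeR called 0 of 1521 domain genes at E11.5 and 0 of the 1528 tested at E17.5. It called 0% of all 17816 and 18763 genes tested at these stages. DESeq2 also called 0 domain genes at either stage, but among all genes it called 2 at E11.5 and 1 at E17.5. With all 16 samples in 1 edgeR fit, 1 of all genes and 0 domain genes were called at E11.5. In the main edgeR tests, the lowest adjusted p among domain genes was 0.577 for E11.5 and 0.808 for E17.5. Without replicate 1 of the E17.5 wild type samples, edgeR also called 0 of 1528 domain genes at E17.5. At an unadjusted p under 0.05, 118 domain genes (7.76%) differed at E11.5, against 5.94% of all genes, and 7 (0.458%) at E17.5, against 1.1%. The difference between the stage changes of the genotypes, tested as an interaction over all 16 samples, was called for 0 of 1534 domain genes by edgeR, with an unadjusted p under 0.05 for 156, where 7.96% of all 20234 genes tested had one.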

How the data were processed

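The members and gene lists used here were chosen with earlier results of these data known. Of 76 samples, the 52 with a peak list or count file were used. The inputs were not analysed here. The authors aligned ChIP-seq reads to mm39 (or mm39 with the human sequence) with Bowtie2 2.4.2, removed duplicate and multi-mapping reads and called peaks per replicate with MACS2 2.2.7.1. The deposited lists give each peak's position, a score, its fold enrichment (a ratio over local background) and the -log10 of its p-value and q-value. The H3K27me3 lists have the broad form. The authors aligned RNA reads with STAR 2.7.9a to release 31 of GENCODE and deposited raw counts per gene. Unstranded counts were used here. Lines that name no gene held 48.1% to 58.4% of reads and were left out. Release 39 gave gene names and starts (56236 of 56923 IDs matched).

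Width was end minus start of the widest overlapping peak. Counts were filtered with filterByExpr, scaled by TMM and tested with edgeR 4.0.16 (quasi-likelihood, Benjamini-Hochberg adjusted p under 0.05, 8 samples per comparison), with DESeq2 1.42.0 as an alternative. "Rose" and "fell" mean called. RPKM used TMM-scaled library sizes and the annotated exon length. log2 widths were tested with limma 3.58.1 over 5 lists. Scripts ran in R 4.3.3 and Python 3.11.15, and the tests were checked on simulated data. Replicates are pools of separate litters.

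Genes were named by rule: the 8 widest domains per stage, the 6 largest width differences each way among domains wide at 1 stage, the 8 largest RNA changes each way among called genes whose stages do not overlap, the 5 widest per H3K27me3 state, listed genes beside their list, and 3 domains on either side of the limit. The 4 sequences follow the same rule. Pax7, Sox1, Cdkn1b and Dll1 were named after their values were seen. Some genes that the rule names are not reported here.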

Additional observations from a re-analysis of the deposited data

Results flagged for a closer look

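For the named domain genes, wild type samples far from the other 3 of their group were sought in 92 groups of 4 with Dixon's test, which chance alone flags in about 1 of 20 groups, and 8 were found. In 4 of them the sample was replicate 1 of E17.5. It had 12.1 RPKM of Lhx9 RNA (others 25.8 to 28.4), 27 of Rnf220 (11.8 to 12.1), 24 of Six3 (10.4 to 11.51) and 96.5 of Sox2 (65.3 to 70.6). At E11.5, replicate 2 had 121.6 RPKM of Sox2 (115.2 to 115.8), 0.146 of AI593442 (0.269 to 0.283) and 0.047 of Vax1 (0 in the others), and replicate 1 had 3.91 of Dmbx1 (7.45 to 8.03). No cause was tested.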

How the results depend on the processing

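A width limit of 3 kb gave 3518 domains, 767 wide at E11.5 only and 893 at E17.5 only, and a limit of 5 kb gave 765, 208 and 247. Counting H3K27me3 on 1 bp of the domain gave 688 domains at E11.5 and 589 at E17.5. Leaving out each H3K4me3 list gave 1592 to 1724 domains. The humanized lists gave 1504 domains, with 516 at E11.5 only and 372 at E17.5 only, so the order of these classes turned; humanized E17.5 replicate 2 had the fewest peaks of 4 kb or more (1265). Leaving out each RNA replicate, 14 to 34 genes of E11.5-only domains rose and 7 to 27 genes of E17.5-only domains fell in wild type, and the highest value of each came without E17.5 replicate 1. With the replicate block, 989 domain genes were called between stages in wild type and 1305 in humanized samples, 0 between genotypes at either stage, and 607 widths in the humanized lists. Same-numbered samples correlated at -0.504 to 0.346 in the wild type stage comparison, so the numbers did not pair samples there, and Fam120b (adjusted p = 0.0933) and Rnf220 (0.0504) lost their calls under the block. In the E17.5 comparison of genotypes same-numbered samples correlated at 0.0434 to 0.562, and 0 domain genes were called with or without the block. The other 165 alternative values of the main results stayed within 1.5 times of the reported value. No named gene reversed. Lhx9 lost its call without E11.5 replicate 2 or 4 or E17.5 replicate 2, 3 or 4 (adjusted p 0.0508 to 0.0718), and Fam120b and Rnf220 without any 1 E11.5 replicate (0.0622 to 0.103). Fam120b also lost it without the filter on low counts (0.129), and Nr2f2 was called with all 16 samples in 1 fit (0.0145). Peak lists give no depth, so a narrow peak in a shallow library cannot be told from a narrow domain.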
